A study of Rattus norvegicus with 16 samples.

Results

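The 10 genes described here encode the packaging proteins and enzymes of the neuropeptide secretory pathway: the granins Chga, Chgb, Scg2 and Scg3, the convertase chaperone Scg5, the prohormone convertases Pcsk1 and Pcsk2, the convertase inhibitor Pcsk1n, the carboxypeptidase Cpe and the amidating enzyme Pam. They were chosen by name from the 33294 genes of a table of read counts, and all 10 were among the 17856 genes that passed the filter on low counts. The counts are from poly(A) RNA of 16 rats, 1 library each, with central amygdala given as the tissue. There were 6 males and 2 females exposed to fentanyl, a synthetic opioid, around birth, and 6 males and 2 females exposed to saline. All were sampled as adults, 1 day after their final IVSA session (the labels leave the abbreviation unexplained), so the saline offspring had these sessions too. The labels name no strain, dose or age in days. They also leave out which animals were littermates, so p-values cover only the spread among these animals, whatever litters they share.

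Neuropeptides are made as long precursors that enter the regulated secretory pathway and are packed into dense-core vesicles in the trans-Golgi network. Granins aggregate there and help to form and load the vesicle, convertases cut the precursor at pairs of basic residues, carboxypeptidase E trims the exposed basic residues, and PAM turns a C-terminal glycine into an amide that many peptides need for activity. The central amygdala is a GABAergic nucleus whose neurons are classed by the peptides they carry, such as enkephalin, dynorphin, somatostatin, neurotensin and corticotropin-releasing factor.

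Total counts ran from 12879701 to 22426428 per library, and each of the 10 genes had at least 40 reads in every library. Values below are CPM, reads of a gene relative to a library's total scaled by its TMM factor, and levels are compared between libraries for 1 gene, never between genes, since no transcript lengths were used. Prkcd, a marker of a central amygdala cell class, lay between 11.2 and 33.3 CPM, and Drd1, which spiny neurons of the striatum carry, between 92.7 and 344 CPM. Slc17a7, a marker of cortical and basolateral glutamatergic neurons, lay between 0.616 and 68.1 CPM, highest in saline male replicate 3. Of hypothalamic peptide genes, Pmch had no read in any library, Oxt none in 14 libraries and 7.38 CPM at most, in saline male replicate 3, while Avp and Hcrt reached at most 0.587 and 0.161 CPM. Prl and Gh1 of the pituitary had no read in any library. In bulk tissue, fewer cells of a type and less RNA per cell cannot be told apart.

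Over both sexes, none of the 10 genes passed between fentanyl and saline offspring (quasi-likelihood test of edgeR, p-values adjusted by Benjamini-Hochberg over all genes, threshold 0.05). This is the usual outcome in these data, where 0.0784% of all genes tested passed. At an unadjusted p under 0.05 there was 1 of the 10, Pcsk1, against 7.27% of all genes. DESeq2 called 0 of the 10, in a fit that called few of all genes as well. Limma voom with sample quality weights called 1, Pcsk2 (0.59 ± 0.14, adjusted p = 0.0255), in a fit that called 3.81% of all genes higher. Of the 10 log2 fold changes (fentanyl minus saline), 4 were above 0 and 6 below, and 52.3% of all genes tested were below 0. Their median was -0.04, beside -0.01 over all genes tested. Markers of several cell types ran with the exposure, and none of them passed. Of striatal spiny neuron markers 14 of 14 had a log2 fold change above 0, and their summed level was 5252 to 10830 CPM in fentanyl and 2247 to 8602 CPM in saline offspring. Below 0 were 13 of 14 myelin, 11 of 12 astrocyte and 11 of 12 microglial markers, though in males 12 of 14 myelin markers were above 0. The part of these markers in the values below was not tested. No gene of the 10 had fentanyl and saline libraries that did not overlap, and 0.101% of all genes had.

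**Figure D1:**
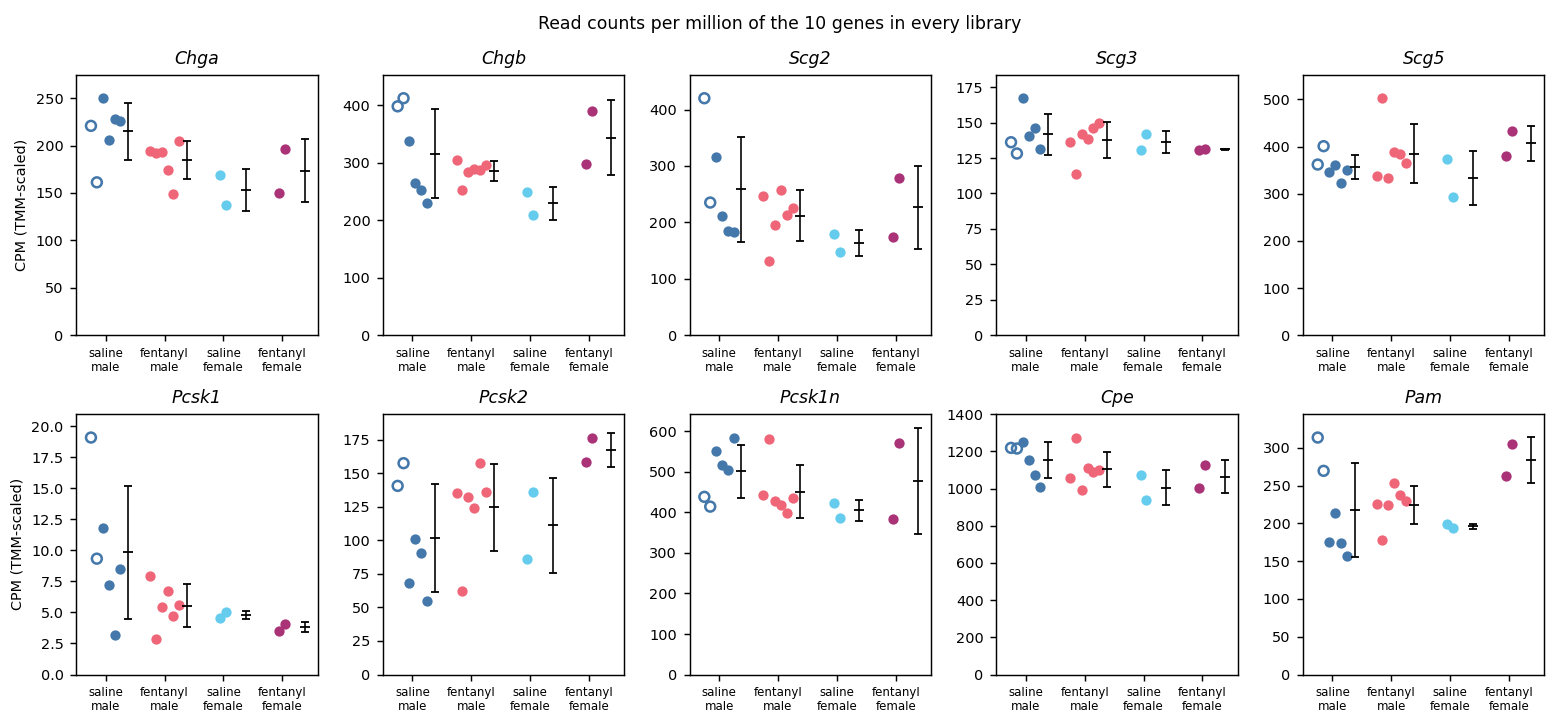
CPM of each gene in every library, with 1 point per animal, open circles for the saline males with library numbers 1 and 2, and bars for the mean and SD of each group. The vertical axes start at 0 and differ between genes. The open circles lie highest among the saline males for Chgb, Pcsk2, Scg5 and Pam, and lowest for Pcsk1n. For Scg5 the lower open circle is nearly level with the next saline male.

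Among the granins, Chga (chromogranin A) had 149, 193 and 205 CPM as the lowest, median and highest of the fentanyl males, and 161, 223 and 249.9 CPM in saline males. The fentanyl females had 149.7 and 197 CPM and the saline females 169 and 137 CPM. The groups of each sex overlapped. The log2 fold change over both sexes was -0.12 ± 0.11 (SE; 95% interval -0.35 to 0.10, adjusted p = 0.828). Chgb (chromogranin B) lay close together in fentanyl males, at 253, 288 and 305 CPM, while saline males ran from 229.9 over a median of 301 to 412 CPM. Its 2 fentanyl females, at 298 and 390.4 CPM, both lay above the saline females at 249.9 and 209 CPM. Over both sexes its log2 fold change was 0.04 ± 0.14 (95% interval -0.27 to 0.34, adjusted p = 0.961).

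Scg2, secretogranin II, is the precursor of the peptide secretoneurin. Its fentanyl males had 131, 219.5 and 257 CPM, and its saline males 183, 223 and 420.0 CPM, with the highest value in saline male replicate 1. Females had 175 and 278 CPM after fentanyl and 179 and 148 CPM after saline. The groups overlapped in both sexes, and the log2 fold change was -0.10 ± 0.20 (95% interval -0.52 to 0.32, adjusted p = 0.920). Scg3, secretogranin III, which tethers chromogranin A aggregates to the vesicle membrane, was the steadiest of the 10. It lay between 113 and 167 CPM in the 16 libraries, a coefficient of variation of 8.49% where the median of genes with at least 10 CPM was 14.6%. Its log2 fold change was -0.05 ± 0.07, and the 95% interval of -0.20 to 0.11 bounds the difference more tightly than for any other of the 10.

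Scg5 encodes 7B2, the chaperone that PCSK2 needs to become active. It had 334, 374.5 and 502.5 CPM in fentanyl males and 323.5, 356 and 401 CPM in saline males, and the females had 380.5 and 433 CPM after fentanyl against 373 and 293 CPM after saline. Both fentanyl females lay above both saline females, and the males overlapped. Over both sexes the log2 fold change was 0.15 ± 0.09 (95% interval -0.04 to 0.35, adjusted p = 0.762).

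The 2 convertases had opposite signs. Pcsk1 (PC1/3), which makes the first cuts in many precursors, was low throughout, at 40 to 281 reads per library. It had 2.88, 5.52 and 7.90 CPM in fentanyl males and 3.21, 8.89 and 19.1 CPM in saline males, and 3.51 and 4.08 CPM in fentanyl females against 4.56 and 5.02 CPM in saline females. Only the females did not overlap. Its mean was 5.10 ± 1.67 CPM in fentanyl and 8.58 ± 5.08 CPM in saline offspring (SD, n = 8 each). The log2 fold change was -0.71 ± 0.28. The 95% interval of -1.29 to -0.12 lay below 0, and after adjustment over all genes p was 0.601. Pcsk1 was also the most variable of the 10, with a coefficient of variation of 59.5%, above or equal to 99.5% of genes with at least 10 CPM, though at its own lower counts sampling adds to the spread.

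Pcsk2 (PC2), which acts later and yields small peptides such as enkephalin, had 62.3, 134 and 157.5 CPM in fentanyl males and 54.7, 95.75 and 157.5 CPM in saline males. In females it had 158.5 and 177 CPM after fentanyl against 86.3 and 136 CPM after saline, with no overlap. The lowest fentanyl value, that of male replicate 2, was well apart from the other 7, which lay at 124 CPM or more. Over both sexes Pcsk2 had 135 ± 34.2 CPM in fentanyl and 104 ± 36.7 CPM in saline offspring (SD, n = 8 each), and its log2 fold change was 0.36 ± 0.22 (95% interval -0.09 to 0.82, adjusted p = 0.759). Pcsk1n encodes proSAAS, a granin-like inhibitor of PCSK1. It had 399.8, 432.5 and 581 CPM in fentanyl males and 414, 509.9 and 585 CPM in saline males, and 384 and 571 CPM in fentanyl females against 423 and 387 CPM in saline females. Both sexes overlapped. Its log2 fold change over both sexes was -0.06 ± 0.11 (95% interval -0.29 to 0.18, adjusted p = 0.923).

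Of the enzymes that finish the peptide, Cpe had 993, 1092 and 1275 CPM in fentanyl males and 1007, 1184 and 1252 CPM in saline males. Females had 1001 and 1126 CPM after fentanyl and 1070.4 and 938 CPM after saline. Its log2 fold change was -0.03 ± 0.08 (95% interval -0.20 to 0.14, adjusted p = 0.947), and its coefficient of variation of 8.87% was the next smallest after Scg3. Pam had 178, 228 and 253 CPM in fentanyl males, all within the range of the saline males at 156, 195 and 313.5 CPM. The fentanyl females had 262 and 305 CPM, above the saline females at 199 and 193 CPM. Over both sexes Pam had a log2 fold change of 0.17 ± 0.14 (95% interval -0.13 to 0.47, adjusted p = 0.826).

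Within males, 6 against 6, none of the 10 genes passed, and 0.0392% of all genes did. None of the 10 had groups that did not overlap, against 0.375% of all genes, and 7 of 10 fold changes were below 0, against 51.7%. Pcsk1 had the smallest p of the 10 (log2 fold change -0.82 ± 0.32, unadjusted p = 0.0206, adjusted p = 1) and was the 1 with an unadjusted p under 0.05, against 4.13% of all genes, and the others ran from -0.29 ± 0.22 for Scg2 to 0.29 ± 0.25 for Pcsk2. Females were compared 2 against 2, in a fit that takes its spread from all 4 groups. None of the 10 and 0% of all genes passed, and 14.3% of all genes had an unadjusted p under 0.05. Of the 10, 8 had a log2 fold change above 0 and 2 below, where 50.6% of all genes were below 0. The highest were those of Pcsk2 (0.59 ± 0.44), Chgb (0.59 ± 0.25) and Pam (0.53 ± 0.27). Chgb was the single gene of the 10 below 0.05 before adjustment, and its adjusted p was 0.338 by edgeR's quasi-likelihood test. In Chgb, Scg5, Pcsk2 and Pam both fentanyl females lay above both saline females, as for 24.1% of all genes, and in Pcsk1 both lay below, as for 24.7%. Markers of several cell types ran with the female groups. All 14 myelin markers had a log2 fold change below 0, and their summed level was 19690 and 8390 CPM after fentanyl against 26690 and 26250 CPM after saline. Striatal markers were above 0 for 14 of 14, at a summed 7941 and 10830 CPM after fentanyl against 4770 and 5621 CPM after saline, and 12 of 12 astrocyte and 12 of 12 microglial markers were below 0. No marker of these lists passed, and their part in the female values was not tested. The difference between the sexes in the exposure effect was above 0 for 9 of the 10 (50.4% of all genes were below 0), and none of the 10 and 0% of all genes passed that test. Chgb alone of the 10 had an unadjusted p under 0.05, against 8.23% of all genes. The difference was 0.73 ± 0.29 for Chgb (unadjusted p = 0.021, adjusted p = 0.570) and 0.76 ± 0.43 for Scg2 (adjusted p = 0.570). DESeq2 and limma voom called none of the 10 in males, in females or for that difference. DESeq2 in these fits, and limma voom in males, called few of all genes as well, so none of the 10 is the usual outcome there. The library numbers in the labels are 1 and 2 for fentanyl and 10 and 11 for saline, so exposure and number cannot be told apart in females.

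Between the sexes, with exposure as a term, none of the 10 passed and 0.056% of all genes did. Pcsk1 was 4.29 CPM on average in 4 females and 7.69 CPM in 12 males (females minus males -0.79 ± 0.33, unadjusted p = 0.0309, adjusted p = 1). Chga was 163 CPM in females and 199.9 CPM in males (-0.29 ± 0.13, unadjusted p = 0.0354, adjusted p = 1). They were the 2 of the 10 with an unadjusted p under 0.05, against 2.52% of all genes.

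**Figure D2:**
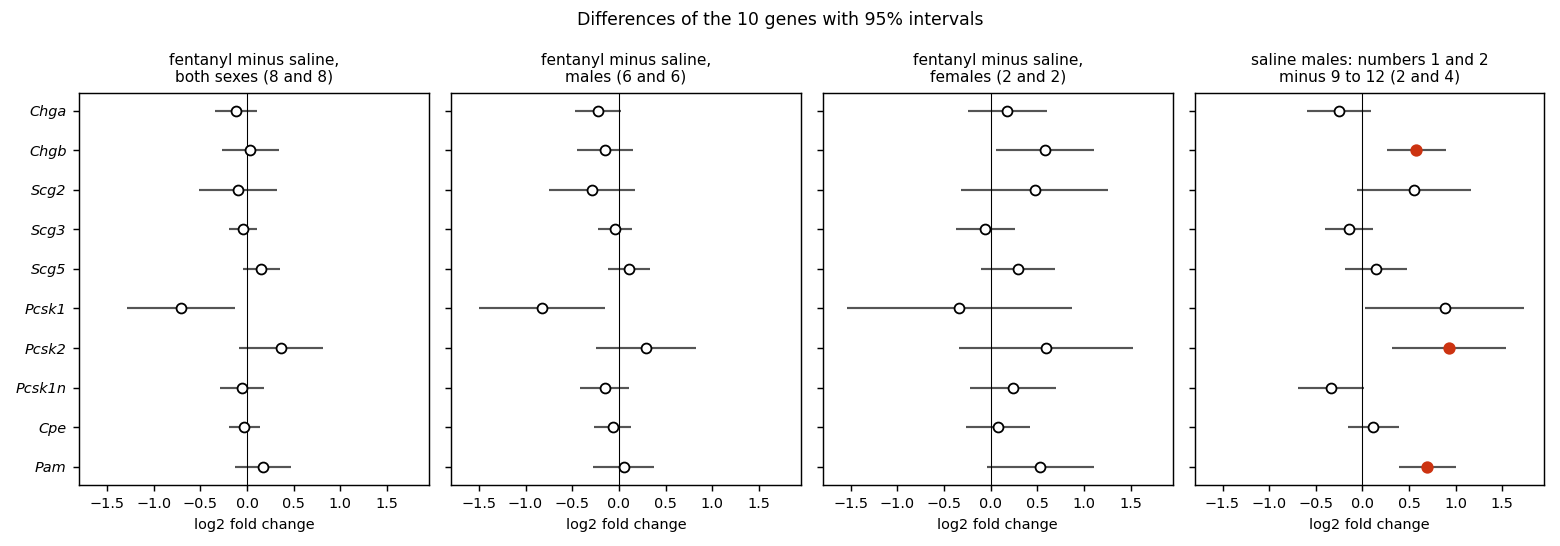
Log2 fold changes of the 10 genes in 4 comparisons, with 95% intervals as horizontal lines. Filled red points passed an adjusted p of 0.05 over all genes: none in the 3 exposure comparisons, and Chgb, Pcsk2 and Pam between the saline males of different library numbers.

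Differences that passed the test appeared within the saline males. The labels give saline males the library numbers 1, 2 and 9 to 12. What the numbers stand for is not stated. The 2 saline males numbered 1 and 2 differed from the 4 numbered 9 to 12 in 3 of the 10 genes, all higher, by the same test in a fit with the saline males split by number. Of all genes tested, 17.9% passed, 8.27% higher. At an unadjusted p under 0.05 there were 4 of the 10, against 31.6% of all genes. Pam was 313.5 and 269 CPM in numbers 1 and 2, against 156 to 214 CPM in numbers 9 to 12, a log2 difference of 0.70 ± 0.14 (1.62-fold, adjusted p = 0.00611). Chgb was 398 and 412 CPM against 229.9 to 337 CPM (0.58 ± 0.15, adjusted p = 0.0157). Pcsk2 was 141 and 157.5 CPM against 54.7 to 101 CPM (0.92 ± 0.29, 1.90-fold, adjusted p = 0.0374). In these 3 genes and in Scg5 numbers 1 and 2 lay wholly above the others, as for 22.6% of all genes, and in Pcsk1n wholly below, as for 22.2%, though neither Scg5 nor Pcsk1n passed. For Scg5 this was nearly a tie, at 361.89 CPM in saline male replicate 1 and 361.56 CPM in replicate 4. Each of the 3 calls rests on both animals, since leaving out either leaves a group of 1. Without replicate 1 the log2 difference was 0.59 for Pam, 0.61 for Chgb and 1.01 for Pcsk2. Without replicate 2 it was 0.80, 0.55 and 0.84. Since both animals lay above the 4 numbered 9 to 12 in these 3 genes, leaving out 1 of them could not change the direction. The Pcsk2 call was lost without saline male replicate 3, 5 or 6 (adjusted p = 0.0572, 0.0511 and 0.0903).

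The other 7 genes did not pass between the number sets. Pcsk1 was 19.1 and 9.33 CPM in numbers 1 and 2 and 3.21 to 11.8 CPM in numbers 9 to 12 (0.88 ± 0.40, adjusted p = 0.143, but 0.0457 without saline male replicate 3). Scg2 had 0.55 ± 0.29 (adjusted p = 0.205). Pcsk1n had the opposite sign, at 438 and 414 CPM against 504 to 585 CPM (-0.34 ± 0.17, adjusted p = 0.176). Chga (-0.25 ± 0.16), Scg3 (-0.15 ± 0.12), Scg5 (0.15 ± 0.15) and Cpe (0.12 ± 0.13) had adjusted p-values of 0.314 to 0.578.

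For 4 of the genes the exposure call depended on which saline males entered the fit. Without the saline males numbered 1 and 2, Pam (0.39 ± 0.09, adjusted p = 0.0238) and Pcsk2 (0.65 ± 0.19, adjusted p = 0.0486) were higher in fentanyl than in saline offspring over both sexes, in a fit that called 4.23% of all genes higher. In that setting no library number is shared by fentanyl and saline animals, so exposure and number cannot be told apart. The same holds in males. Leaving out fentanyl male replicate 2 as well, a setting chosen after seeing the data, gave Pam 0.44 ± 0.08 and Pcsk2 0.75 ± 0.14, where 6.61% of all genes were called higher. That setting removes the lowest fentanyl value and the 2 highest saline values of both genes. A larger difference was therefore set in advance, and these calls decide nothing about the exposure. In males without saline males 1 and 2 neither passed (Pam 0.33 ± 0.11, adjusted p = 0.199; Pcsk2 0.67 ± 0.23, adjusted p = 0.208), and without fentanyl male replicate 2 too Pcsk2 did (0.82 ± 0.17, adjusted p = 0.0452, 0.749% of all genes higher). Without the saline males numbered 9 to 12, Chgb (-0.51 ± 0.12, adjusted p = 0.0313) and Pcsk1 (-1.36 ± 0.30, adjusted p = 0.0267) were lower in fentanyl than in saline males, where 2.14% of all genes were called lower. That fit keeps 2 saline males, at 398 and 412 CPM for Chgb and 19.1 and 9.33 CPM for Pcsk1, above every fentanyl male. The direction was therefore set by which saline males were kept, and these calls too decide nothing about the exposure. In that fit Pam had -0.38 ± 0.13 (adjusted p = 0.101) and Pcsk2 -0.26 ± 0.26, and neither passed. The comparisons with either number set share the fentanyl animals. Scg3 and Cpe stayed small: over both sexes and in males, the log2 fold changes in the settings tried lay between -0.08 and 0.06 for Scg3 and between -0.15 and 0.01 for Cpe.

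Markers of other cells moved with the same split. Of 14 markers of striatal spiny neurons, 12 were higher in numbers 1 and 2, and their summed level was 5830 to 8602 CPM there, 2247 to 3845 CPM in numbers 9 to 12 and 5252 to 8523 CPM in fentanyl males. Of 14 myelin and oligodendrocyte markers, 12 were lower, at a summed 7563 to 10180 CPM against 11820 to 34440 CPM, with 15080 to 35910 CPM in fentanyl males. No marker of either list was at 0 in all libraries. Of 12 astrocyte markers 6 were lower and none was higher, at 2656 to 2861 CPM against 3491 to 4416 CPM. Of 14 central amygdala markers 2 were higher and 1 lower, at a summed 5538 to 6063 CPM against 1584 to 2781 CPM. Their mean log2 CPM overlapped, at 6.22 and 5.55 against 5.01 to 6.30. Of these markers 9 had a log2 difference above 0 and 5 below. Of 13 general neuronal markers 5 were lower and none was higher, at a summed 5161 to 5692 CPM against 5915 to 6451 CPM. Of 9 tested markers of thalamus and hypothalamus 2 were higher and 4 lower. Of 9 tested cortical and basolateral glutamatergic markers 3 were lower and 0 higher, and of 12 microglial markers 3 were lower and 0 higher. The part of all these markers in the differences of Pam, Chgb and Pcsk2 was not tested.

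**Figure D3:**
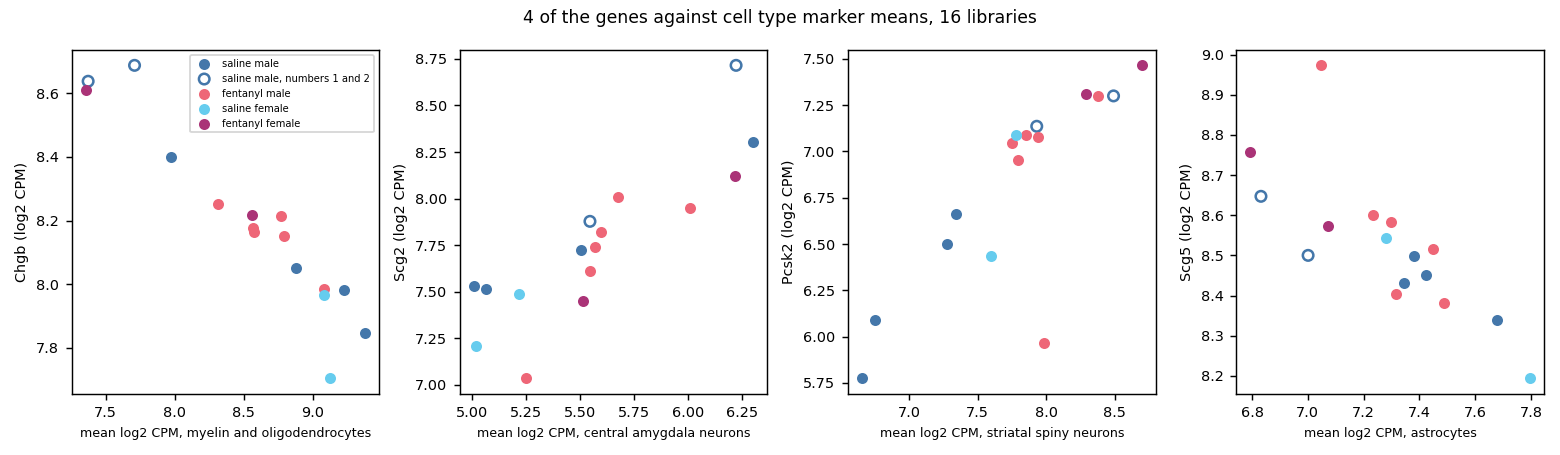
Log2 CPM of Chgb, Scg2, Pcsk2 and Scg5 in 16 libraries (vertical axes) against the mean log2 CPM of a marker list of 1 cell type (horizontal axes). Chgb ran against the myelin markers (r = -0.949), and fentanyl male replicate 2 lay far below the other libraries with a like level of striatal markers in the panel of Pcsk2.

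Over the 16 libraries the 10 genes did not vary as 1 block. These correlations are descriptions over points that share library, depth and tissue make-up. Of 45 pairs, 8 had a Pearson r of log2 CPM above 0.5 and 3 below -0.5. Pcsk2 and Pam were the closest pair (r = 0.852, Spearman's rho 0.853), followed by Chgb with Scg2 (r = 0.785), Scg2 with Pcsk1 (r = 0.770) and Chgb with Pam (r = 0.757, and 0.873 without saline male replicate 3). Chga went with Pcsk1n (r = 0.737), and Scg5 with Cpe (r = 0.617). Pcsk1 and its inhibitor Pcsk1n had r = -0.010. Pcsk2 and its chaperone Scg5 had r = -0.052 (rho 0.294), and r = 0.361 without fentanyl male replicate 2. Pcsk2 and Pcsk1n ran in opposite directions (r = -0.664), as did Scg3 and Scg5 (r = -0.647), for which r was -0.404 without fentanyl male replicate 2. Taken about the means of the 4 groups, these values were similar for Pcsk2 with Pam (r = 0.838) and Chgb with Scg2 (r = 0.769).

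**Figure D4:**
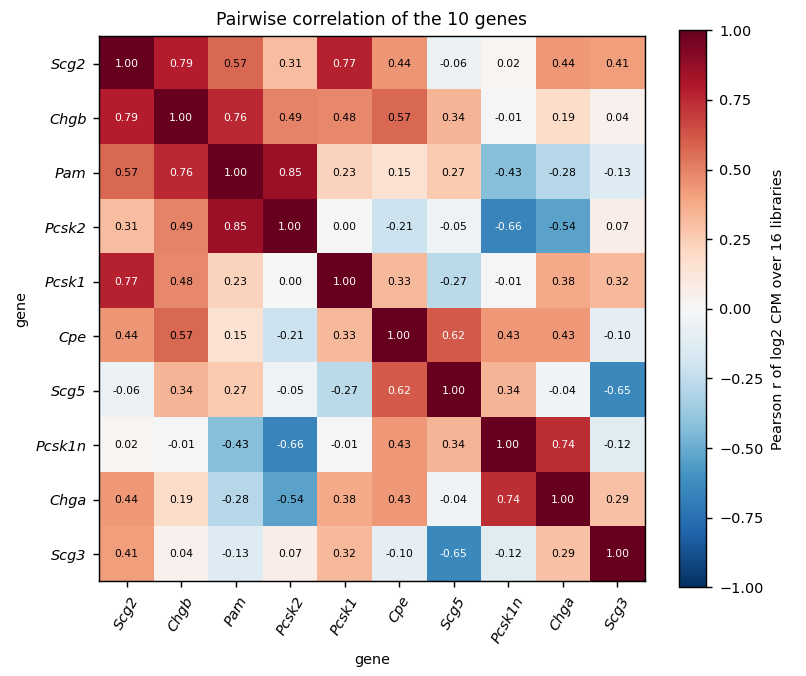
Pearson r of log2 CPM over 16 libraries for each of the 45 pairs of genes, red above 0 and blue below, with r printed in each cell. The 6 pairs among Scg2, Chgb, Pam and Pcsk2 are all red, at r from 0.308 to 0.852, and Pcsk1n and Chga pair with each other.

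The genes differed in part in which cell type markers they ran with, and several ran with more than 1 list. Chgb had r = -0.949 with the mean of 14 myelin markers (rho -0.959), and 8 of 10501 genes with at least 10 CPM had an r as low or lower. It was -0.931 without the 2 libraries farthest from the median of that mean and -0.930 without saline males 1 and 2. Scg2 and Pam had r = -0.814 and -0.777 with the same list. Scg2 had its highest r with the central amygdala list (r = 0.861, within the highest 0.704% of genes, and 0.795 without the 2 farthest libraries). Chgb had r = 0.807 with this list too, within the highest 1.94% of genes, and 0.773 without the 2 farthest libraries. That list holds the peptide genes Penk, Sst, Crh, Nts, Tac1 and Tac3, and striatal neurons also express Penk and Tac1. Pcsk2 (r = 0.808) and Pam (r = 0.779) went with the 14 striatal markers, within the highest 4.58% and 5.66% of genes. Without the 2 farthest libraries these were 0.632 and 0.662, and for Pcsk2 r was 0.950 without fentanyl male replicate 2. With the central amygdala list r was 0.348 for Pcsk2 and 0.594 for Pam. Without the 2 libraries farthest on that list it was 0.645 and 0.820, and without fentanyl male replicate 2 it was 0.292 and 0.570. The libraries left out as farthest differ between the 2 lists, and both lists hold Ppp1r1b. How much nearer Pcsk2 and Pam were to the striatal list thus depended on the libraries left out. With the 7 tested markers of ependyma and choroid plexus, whose list summed to 12.7 to 22.9 CPM, Scg2 (r = 0.731), Chga (0.663) and Chgb (0.616) lay within the highest 0.399%, 0.961% and 1.74% of genes. Scg5 ran against the astrocyte list (r = -0.780, rho -0.841, and -0.652 without the 2 farthest libraries), as did Chgb (r = -0.768). Against the microglial list Chgb had r = -0.831 and Pam r = -0.790, within the lowest 3.82% and 6.29% of genes.

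The genes most like each of the 10, among 10514 others with at least 10 CPM, included none of the 10 themselves. Nearest to Pcsk2 were Adcy5, an adenylyl cyclase abundant in striatal spiny neurons (r = 0.975), Cyfip2 (0.972) and Adcy9 (0.970). Nearest to Chgb were Pdxp (0.951), Psd (0.943) and Pdzd4 (0.941), and to Pam Dclk1 (0.952), Cyrib (0.946) and Senp2 (0.944). Scg2 was closest to Gabra5, a GABA-A receptor subunit (0.942), Pde7a (0.942) and Negr1 (0.931), and Pcsk1 to LOC102554055 (0.910), Bach2 (0.907) and Zdbf2 (0.872). Scg5 was closest to Arf5 (0.961), Lin7b (0.959) and B9d2 (0.958), and Pcsk1n to Dpcd (0.909), Akr1a1 (0.905) and Gng3 (0.879). The values were lower for Scg3, with Plpp3 (0.894), Cracd (0.871) and Lasp1 (0.868), for Chga, with Nkain1 (0.854), Basp1 (0.852) and Fkbp1b (0.845), and for Cpe, with LOC102556004 (0.838), Stx2 (0.836) and Ehbp1l1 (0.825).

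The 250 bases before the start are shown for Scg2 and Chgb, which ran together over the libraries (r = 0.785), and for Pcsk2, which was less close to either (r = 0.308 and 0.494). The sequences are RefSeq's, on GRCr8, while the submitters' notes name rn7 for the counts. Of the 10 genes 8 matched, all but Chga and Pcsk1. Each is written 5′ to 3′ on the gene's strand, Scg2 at chr9:88256867-88257116, minus strand, Chgb at chr3:140496462-140496711, plus strand and Pcsk2 at chr3:151333688-151333937, plus strand. Capitals mark TGACGTCA, the full cAMP response element, TGACG, its half-site, and GGGCGG, a GC box, each on either strand.
Scg2: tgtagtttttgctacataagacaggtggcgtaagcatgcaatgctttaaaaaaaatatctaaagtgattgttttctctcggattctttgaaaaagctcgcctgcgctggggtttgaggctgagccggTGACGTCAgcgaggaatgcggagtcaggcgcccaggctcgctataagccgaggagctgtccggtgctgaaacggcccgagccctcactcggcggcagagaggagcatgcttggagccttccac
Chgb: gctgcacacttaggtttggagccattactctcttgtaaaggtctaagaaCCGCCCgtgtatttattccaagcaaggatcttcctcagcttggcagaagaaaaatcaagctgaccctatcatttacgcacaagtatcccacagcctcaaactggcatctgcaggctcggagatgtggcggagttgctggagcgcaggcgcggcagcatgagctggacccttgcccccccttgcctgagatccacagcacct
Pcsk2: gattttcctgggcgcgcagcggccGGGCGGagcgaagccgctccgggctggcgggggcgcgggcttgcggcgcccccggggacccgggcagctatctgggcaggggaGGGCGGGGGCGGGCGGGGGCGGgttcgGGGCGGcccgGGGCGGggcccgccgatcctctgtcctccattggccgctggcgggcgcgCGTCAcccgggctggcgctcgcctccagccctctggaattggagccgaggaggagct
TGACGTCA was found in Scg2, 1 of the 8, beginning 123 bases before the start, and in 1.59% of 33469 such windows. The half-site, which the full element contains, was in 6 of the 8 and in 18.2% of all windows, and was not in that of Chgb or Pcsk1n. GGGCGG was in 5 of the 8, with 7 matches in Pcsk2 that overlap in part, and in 30.5% of all windows. A match describes the letters of the window only.

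The rest of the pathway was followed in 4 lists. No gene of any list passed between the exposures over both sexes, in males or in females by the same test. Of the peptide precursors, 21 of 34 were tested, with a median log2 fold change of 0.06 over both sexes and 1 with an unadjusted p under 0.05. In males the median was -0.22, with 16 of 21 below 0, and in females 0.82, with 15 of 21 above 0. The difference between the sexes was above 0 for 19 of 21, and none passed that test. Vgf, a granin-like precursor, had 78.5 ± 20.2 CPM in fentanyl and 78.0 ± 26.3 CPM in saline offspring (SD, n = 8 each). The log2 fold changes were 0.47 ± 0.31 for Tac1 (substance P), 0.33 ± 0.26 for Npy, 0.32 ± 0.36 for Penk, 0.14 ± 0.22 for Cck, 0.12 ± 0.31 for Sst, 0.09 ± 0.28 for Pdyn, 0.03 ± 0.44 for Nts, 0.17 ± 0.60 for Crh and -1.39 ± 0.91 for Cartpt. Cartpt had -2.37 ± 0.72 in males and 3.04 ± 1.35 in females, with an adjusted p of 0.570 for the difference by edgeR's quasi-likelihood test. Adcyap1, at 0.373 CPM in fentanyl offspring, did not pass the filter.

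Of 23 other processing enzymes 22 were tested, with a median of -0.02. Furin, the convertase of the constitutive pathway, had 28.8 ± 4.32 and 29.2 ± 2.51 CPM in fentanyl and saline offspring (-0.02 ± 0.10), and Pcsk5, a further convertase, -0.24 ± 0.14. Cpd, a carboxypeptidase of the Golgi, had -0.20 ± 0.27, Ece2, an endothelin-converting enzyme, -0.11 ± 0.10, and Qpct, which cyclises N-terminal glutamine, -0.10 ± 0.18. All 41 genes of vesicle formation and release were tested, with a median of 0.03. The vesicle membrane phosphatases Ptprn and Ptprn2 had 0.13 ± 0.15 and -0.02 ± 0.17, the priming factors Cadps and Cadps2 -0.09 ± 0.16 and -0.23 ± 0.49, and the synaptotagmins Syt4 and Syt7 0.19 ± 0.15 and 0.04 ± 0.10. Hid1, needed for vesicle formation, had -0.01 ± 0.09 and Rab27b, which docks vesicles, -0.42 ± 0.35. Of 16 peptide-degrading enzymes 15 were tested, with a median of 0.02. Mme (neprilysin), which cleaves enkephalins, had 0.42 ± 0.25 and Ecel1 -0.34 ± 0.28.

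Between the saline number sets, 19 genes of these lists passed, of 21, 22, 41 and 15 tested. That is close to the share over all genes, of which 17.9% passed. Of 21 precursors 4 were higher and none lower: Penk (1.75 ± 0.33, adjusted p = 0.00429), Pdyn (1.16 ± 0.30), Cartpt (2.47 ± 0.73) and Nucb2, the nesfatin precursor (0.48 ± 0.16). Of 22 processing enzymes none was higher and 4 were lower, Cpm (-1.27 ± 0.33), the convertases Pcsk4 (-0.86 ± 0.27) and Pcsk6 (-0.83 ± 0.25), and Ctsb, cathepsin B (-0.44 ± 0.11). Of 41 vesicle genes 4 were higher, Doc2b (1.32 ± 0.27), Ica1l (0.63 ± 0.14), Unc13a (0.63 ± 0.16) and Eipr1 (0.34 ± 0.10), and 3 were lower, Cadps (-0.78 ± 0.20), Gnas (-0.78 ± 0.23) and Arl8a (-0.44 ± 0.13). Of 15 degrading enzymes Cpq (0.47 ± 0.13) and Thop1 (0.45 ± 0.13) were higher and Ecel1 (-1.37 ± 0.41) and Mmel1 (-0.93 ± 0.27) lower. Over all genes, calls came to 128 higher and 65 lower without saline male replicate 2, and to 640 and 595 without replicate 1.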

How the data were processed

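The submitters' processing notes name the build rn7 and the tools Trimmomatic, STAR, HTSeq and DESeq2, without versions. Neither the annotation nor the strand setting is stated there. The deposited values are raw read counts per gene, 1 column per library, each tied to a sample through its labelled name. They were fitted with edgeR 4.0.16 under R 4.3.3: filterByExpr by the 4 groups (minimum 0.603 CPM), TMM factors, and robust quasi-likelihood tests with Benjamini-Hochberg adjustment over 17856 genes (threshold 0.05). Sex was a term over both sexes; males, females and their difference were contrasts of a fit of 4 groups. Each SE was derived from the log2 fold change and its F statistic, and 95% intervals are per gene. Correlations use log2 CPM with a prior count of 2. The members and lists were chosen with earlier results of these data known. All 10 members were named, with a fixed set of pathway genes, any list gene past the threshold and the 3 genes most alike each member. On simulated counts (17619 genes) the test over both sexes found 49.3% of 1.5-fold and 85.1% of 2-fold changes, and the test in females 2.99% and 26.9%. Alternatives used DESeq2 1.42.0, limma 3.58.1 and sva 3.50.0. Fentanyl and saline males with the same replicate number in their titles, which is not the library number (saline male replicates 3 to 6 are libraries 9 to 12), had correlations of deviations from -0.07 to 0.21, so replicate numbers were not taken as pairs.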

Additional observations from a re-analysis of the deposited data

Results flagged for a closer look

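In fentanyl males, 4 genes had replicate 2 far from the other 5 animals, by the gap to the nearest value relative to the whole range. Scg5 was 502 CPM there, with the next animal at 388 CPM, and Pcsk1n was 581 CPM, with the next at 444 CPM. Pcsk2 was 62.3 CPM, with the next at 124 CPM, and Scg3 was 113 CPM, with the next at 136 CPM. Chance gives such a gap in about 1 of 20 groups, and 20 gene-by-group sets were examined, with these 4 all in 1 library. The same library had the highest summed myelin markers of the 16, at 35910 CPM, the highest summed endothelial and mural markers, at 459 CPM, and the lowest TMM factor, 0.902. Their part in these values was not tested. Without it, the log2 fold change over both sexes was 0.48 for Pcsk2, 0.10 for Scg5, -0.10 for Pcsk1n and 0.002 for Scg3, and none of the 10 genes passed.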

How the results depend on the processing

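Genes called over both sexes (9 higher, 5 lower) numbered 53 and 34 with DESeq2, 680 and 351 with limma voom, 54 and 29 with surrogate variables, 5 and 2 with the replicate block, 752 and 474 without saline males 1 and 2, 1 and 3 without 9 to 12, and 1174 and 745 without fentanyl male 2 and saline males 1 and 2 together, a setting chosen after seeing the data. In males (7 and 0) they numbered 28 and 14 with DESeq2, 51 and 36 with voom, 3 and 0 with the replicate block, 57 and 14 without 1 and 2, 582 and 373 without 9 to 12, and 133 and 39 in the later setting, and in a fit of the males alone 1 gene was lower. In females DESeq2 called 10 and 10 (0 and 0), and for the difference between the sexes 3 and 1.

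Of the 10 genes, 1 was called over both sexes with voom (Pcsk2, 0.59), 2 without saline males 1 and 2, and 2 in the setting chosen later (Pcsk2 0.75, Pam 0.44). The later setting leaves out the lowest fentanyl and the 2 highest saline values of Pcsk2 and Pam. In males 2 were called lower without 9 to 12, a setting that keeps 2 saline males, and 1 higher in the later setting (Pcsk2, 0.82). Some log2 fold changes turned sign. Over both sexes these were Scg2 with voom (0.068), without 1 and 2 (0.082) and in the later setting (0.173), Cpe without 1 and 2 (0.012), Chga (0.038), Chgb (-0.094), Scg3 (0.010), Pcsk1n (0.142) and Pam (-0.031) without 9 to 12, and Chgb (-0.035) and Scg3 (0.021) with surrogate variables. In males these were Chgb (0.072), Scg2 (0.020) and Scg3 (0.003) with voom, Chgb without 1 and 2 (0.079), Scg3 (0.055), Pcsk2 (-0.264), Pcsk1n (0.079) and Pam (-0.38) without 9 to 12, and Chgb (0.117) and Scg2 (0.034) in the later setting. For the difference between the sexes it was Pcsk1 with voom (-0.052). In the main fit not all of these were small, at -0.287 for Scg2 and 0.288 for Pcsk2 in males and 0.487 for Pcsk1 in the difference. The cause was not tested.

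With 1 library left out, none of the 10 passed between the exposures or the sexes. The ranges over both sexes were -0.215 to 0.057 for Scg2, -0.065 to 0.002 for Scg3 and -0.047 to 0.116 for Chgb, with 8 to 21 genes higher and 1 to 8 lower (21 and 8 without saline male replicate 2, and 1 lower when either fentanyl male replicate 6 or the first fentanyl female was left out). In males they were -0.068 to 0.017 for Scg3 and -0.029 to 0.188 for Pam, with 4 to 8 higher (4 without saline male replicate 4) and 0 to 2 lower (2 without saline male replicate 5). In females they were -0.030 to 0.365 for Chga, -0.075 to 0.496 for Pcsk1n and -0.015 to 0.180 for Cpe, with 0 to 5 higher (5 without saline male replicate 5). For the difference they were -0.075 to 0.037 for Scg3, with 0 to 4 higher and 0 to 1 lower, and for the sexes -0.070 to 0.073 for Scg5, -0.005 to 0.180 for Pam and -0.259 to 0.067 for Chgb. Between the saline number sets 0 to 3 of the 10 were higher, with 128 to 2062 genes higher and 65 to 2236 lower over all, and 859 and 1035 without saline male replicate 6. The replicate block changed no call among the 10. Crossing the replicate numbers of the saline females in the block, added since their deviations were negatively correlated (-0.17), called 0 genes in females. Groups of 2 animals limit the female and number-set comparisons.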
